A study of Mus musculus with 10 samples.

Results

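The MiT/TFE transcription factors are Tfeb, Tfe3, Tfec and Mitf, and the folliculin complex that controls them is Flcn, Fnip1 and Fnip2. These genes and the target genes Gpnmb and Mcoln1 were followed in cells sorted as positive or negative for uptake of apoptotic cells. These 9 genes were chosen by name, for their known roles, but with earlier results of these data known. All 9 were found by symbol among the 55414 gene identifiers of the count tables. Messenger RNA had been sequenced from 10 mouse libraries: 3 wound Eff+ and 3 wound Eff- libraries, and 2 culture Eff+ and 2 culture Eff- libraries, where Eff+ stands for sorted cells positive for efferocytosis, the uptake of apoptotic cells, and Eff- for cells negative for it. The series' design text states its purpose as a better understanding of efferocytosis in skin. All 6 wound libraries came from LysMCreER/mTmG mice that received tamoxifen for 6 days, with wounds taken at day 3. LysMCreER is a tamoxifen-inducible Cre placed in the Lyz2 gene, which is active in myeloid cells including neutrophils, and mTmG is a reporter that switches its fluorescent colour where Cre has acted. The 4 culture libraries came from Wild Type bone marrow cells grown in GM-CSF for 7 days, with a treatment of apoptotic fibroblasts for 12 h listed for both groups. The column names of the culture Eff- libraries carry the letters NOAC, so it is unclear whether those cells had met apoptotic cells. No label gives an age or says that replicates were separate animals or cultures, so each p-value reflects the scatter among these libraries alone, and that scatter may be technical.

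Total counts ranged from 39735437 to 57308823 in the wound libraries and from 17622740 to 27261880 in the culture libraries. Some libraries stood apart from the others. In the wound, Lyz2 held 159484 counts in Eff+ 2 and 345046 in Eff- 2, against 160 to 413 in the remaining 4 libraries. In culture, 35649 and 44836 gene identifiers had a count in Eff+ 1 and Eff- 1, whereas 19649 and 18171 had one in Eff+ 2 and Eff- 2. Each of 14 macrophage marker genes, among them Adgre1, Csf1r and Cd68, had counts in all 10 libraries. In the wound the macrophage list took 0.373 to 0.591% of counts in Eff+ libraries and 0.696 to 1.72% in Eff- libraries. Lyz2 is on this list, and the highest value of each group was that of its library numbered 2. A list of 16 neutrophil marker genes took 2.15 to 2.44% in wound Eff+ libraries and 0.398 to 0.655% in wound Eff- libraries. The wound Eff+ libraries therefore held more neutrophil than macrophage marker counts by these lists.

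TFEB, TFE3, TFEC and MITF are basic helix-loop-helix leucine zipper proteins that bind DNA as dimers with themselves or with each other, at E-box sequences such as CACGTG and CATGTG near genes of lysosomes and autophagy. Macrophages digest engulfed apoptotic cells in lysosomes, and Tfec is known as a factor found mostly in macrophages and related cells. When amino acids are plentiful, mTORC1 on the lysosome phosphorylates TFEB and TFE3 and holds them in the cytosol. Folliculin, with FNIP1 or FNIP2, activates the GTPase of RagC and RagD and so enables that phosphorylation. Messenger RNA levels do not show where these proteins were or whether they were phosphorylated.

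The promoters below are shown because they hold CACGTG, the core of the site that these factors bind. The windows run from 250 bases before to 50 bases after an annotated start, are RefSeq sequences of GRCm38.p6, and were searched on both strands. All 9 genes had a window, 14 in all, and CACGTG was present in 2 of the 14, those of Fnip1 and Mcoln1. Across 32851 mouse windows of the same length, 7.15% held CACGTG. In the Mcoln1 window (chr8:3500269-3500568, plus strand) it began 71 and 45 bases before the start, and in the Fnip1 window (chr11:54437929-54438228, plus strand) 75 bases before it. Mcoln2 and Gla are lysosomal genes that differed between wound Eff+ and Eff- cells, and theirs were the only CACGTG-bearing windows among the 11 found for the 14 named pathway genes of that kind. In the Mcoln2 window (chr3:146149924-146150223, plus strand) it began 72 bases before the start. In the Gla window (chrX:134600956-134601255, minus strand) it began 227 and 194 bases before the start, with CATGTG between those copies. CATGTG was in none of the 14 windows of the 9 genes, against 14.2% of all windows. CACGTG and CATGTG are in capitals.
Mcoln1: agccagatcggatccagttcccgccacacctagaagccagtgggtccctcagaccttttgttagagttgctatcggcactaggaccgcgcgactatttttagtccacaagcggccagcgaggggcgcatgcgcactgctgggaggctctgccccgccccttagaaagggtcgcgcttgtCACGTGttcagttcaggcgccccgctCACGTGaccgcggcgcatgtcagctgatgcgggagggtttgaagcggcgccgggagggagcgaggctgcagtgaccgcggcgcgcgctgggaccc
Fnip1: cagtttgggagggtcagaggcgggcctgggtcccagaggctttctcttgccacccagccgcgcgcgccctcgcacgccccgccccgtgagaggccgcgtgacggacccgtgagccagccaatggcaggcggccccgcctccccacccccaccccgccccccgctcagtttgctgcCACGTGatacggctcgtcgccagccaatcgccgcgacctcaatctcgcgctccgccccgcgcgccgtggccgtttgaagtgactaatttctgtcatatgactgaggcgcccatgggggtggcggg
Mcoln2: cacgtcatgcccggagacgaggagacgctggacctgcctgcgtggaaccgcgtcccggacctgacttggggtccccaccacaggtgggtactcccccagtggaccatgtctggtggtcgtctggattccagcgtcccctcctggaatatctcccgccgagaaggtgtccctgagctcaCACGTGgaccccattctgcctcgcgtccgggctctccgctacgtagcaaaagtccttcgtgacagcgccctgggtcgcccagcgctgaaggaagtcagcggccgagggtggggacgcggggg
Gla: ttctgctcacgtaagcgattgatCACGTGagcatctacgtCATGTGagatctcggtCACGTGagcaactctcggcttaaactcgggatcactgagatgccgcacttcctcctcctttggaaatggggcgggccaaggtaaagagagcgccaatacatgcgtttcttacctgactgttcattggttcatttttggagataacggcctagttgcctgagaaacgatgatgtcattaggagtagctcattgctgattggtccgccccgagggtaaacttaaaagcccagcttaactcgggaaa
A match is a description of these letters, and binding was not measured.

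Before the comparisons, the levels of the 9 genes were set on 1 scale, library-size-scaled counts (CPM) per kilobase of counted exon, with sizes scaled over all 10 libraries by the trimmed mean of M-values (TMM). Among the factors, Tfe3 had the highest mean level in all 4 groups except culture Eff+, where Mitf stood at 10.8 ± 4.81 and Tfe3 at 10.7 ± 1.36 CPM per kilobase (SD, n = 2). Tfe3 averaged 14.9 ± 4.55 CPM per kilobase in wound Eff+ and 10.3 ± 2.39 in wound Eff- libraries (SD, n = 3 each). Tfeb had the lowest mean of the 9 genes in wound Eff- libraries, at 1.78 ± 0.174 CPM per kilobase, against 4.78 ± 1.06 in wound Eff+ libraries (SD, n = 3 each). Flcn had the highest mean of the folliculin complex genes in every group on this scale. It averaged 43.2 ± 13.5 in wound Eff+, 38.9 ± 9.49 in wound Eff-, 23.1 ± 1.43 in culture Eff+ and 22.0 ± 14.2 CPM per kilobase in culture Eff- libraries. Single culture libraries differed from this. In culture Eff- 1, Flcn (12.0) was below Fnip1 (16.1) and Fnip2 (15.2). In culture Eff+ 1, Flcn (22.0) was below Fnip2 (23.0).

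**Figure D1:**
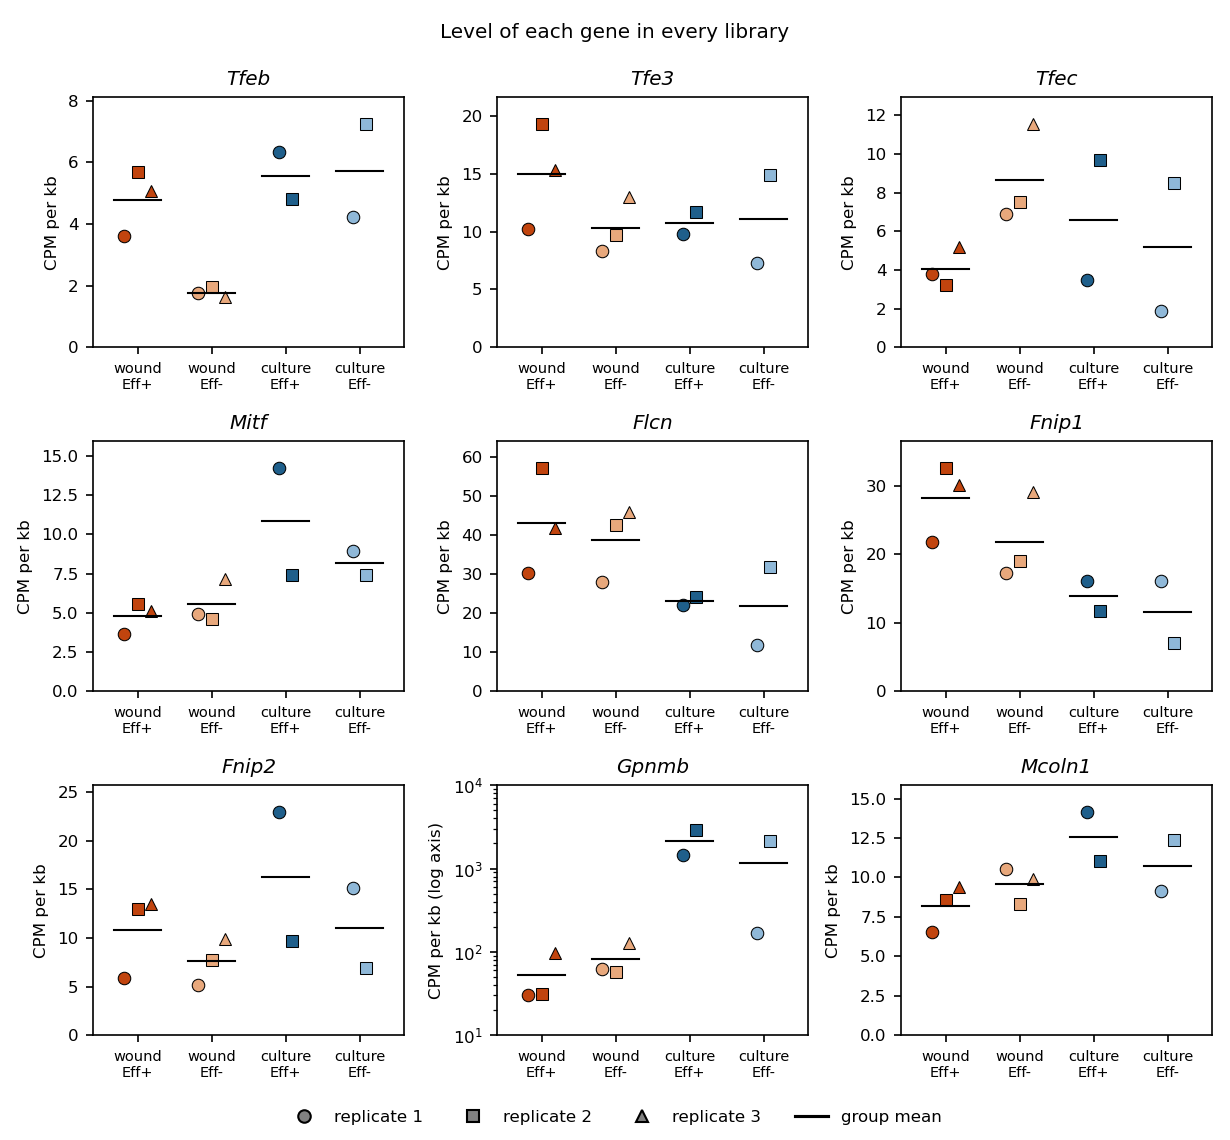
Level of each of the 9 genes in CPM per kilobase (vertical axis; logarithmic for Gpnmb, linear from 0 for the others) in the wound Eff+, wound Eff-, culture Eff+ and culture Eff- groups, with 1 symbol per library, its shape giving the replicate number, and a line at the group mean. Wound Eff+ and Eff- libraries do not overlap for Tfeb and Tfec, and Gpnmb in culture runs from 170 to 2871 CPM per kilobase, above all wound libraries.

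The largest spread of levels between the models was that of Gpnmb. It reached 1453 and 2871 CPM per kilobase in culture Eff+ and 170 and 2149 in culture Eff- libraries, against 30.6 to 96.4 in wound Eff+ and 57.1 to 126 in wound Eff- libraries. Every culture library was above every wound library, and the same held with library totals as the only scaling. Ordered from high to low by group mean, Tfeb ran culture Eff-, culture Eff+, wound Eff+, wound Eff-, and only the last step separated groups without overlap. For Mitf the ordering was culture Eff+, culture Eff-, wound Eff-, wound Eff+, with a gap only between culture Eff- (7.43 and 8.97 CPM per kilobase) and wound Eff- (4.61 to 7.13). Flcn and Fnip1 were highest in wound Eff+, then wound Eff-, culture Eff+ and culture Eff-. For both a gap lay only between wound Eff- and culture Eff+, although Flcn in culture Eff- 2 was within the wound range. For Tfe3, Tfec, Fnip2 and Mcoln1 no neighbours in the order were separate. Several of these steps depended on the scaling. With library totals only, Flcn and Fnip1 were highest in wound Eff- (means of 38.2 and 21.4 CPM per kilobase). Their wound Eff+ means were then 31.4 and 20.6, and their gaps closed. Under that scaling Tfeb gained a gap between culture Eff+ (5.42 and 8.47) and wound Eff+ (2.65 to 3.99). Mitf and Mcoln1 gained gaps too. Model, tissue, counting run and batch cannot be told apart between wound and culture, so these orders carry no test.

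In the wound, Eff+ cells carried more Tfeb and less Tfec messenger RNA than Eff- cells, while Tfe3, Mitf, the folliculin complex, Gpnmb and Mcoln1 did not pass the test. From here on, values are CPM on the TMM scale of each model's own libraries, fold changes are log2 of Eff+ over Eff-, and adjusted p comes from edgeR's quasi-likelihood test with Benjamini-Hochberg adjustment over all genes tested. Of the 9 genes, 2 were called (adjusted p under 0.05), beside 11.2% of the 14908 genes tested; 1 was higher, beside 7.39%, and 1 lower, beside 3.79%. Groups did not overlap for 2 of the 9, beside 36.8% of all genes tested, so a gap between groups was not unusual in these libraries. All 9 genes passed the filter on low counts in both models. Tfeb (ENSMUSG00000023990, chr17:48047955-48103344, plus strand, GRCm39), which drives lysosome and autophagy genes, had 16.9, 26.8 and 24.6 CPM in wound Eff+ libraries, against 8.50, 9.57 and 7.87 CPM in wound Eff- libraries. All 3 Eff+ libraries were above all 3 Eff- libraries. Tfeb averaged 22.8 ± 5.17 CPM in Eff+ and 8.65 ± 0.861 CPM in Eff- libraries (SD, n = 3 each), a log2 fold change of 1.40 (SE 0.23, 2.63-fold, edgeR adjusted p = 0.014). Tfec (ENSMUSG00000029553, chr6:16833372-16898440, minus strand) had 17.5, 14.9 and 24.9 CPM in wound Eff+ libraries, against 33.0, 36.3 and 55.5 CPM in wound Eff- libraries. Again the groups did not overlap, with Eff+ below Eff-. Tfec averaged 19.1 ± 5.19 CPM in Eff+ and 41.6 ± 12.1 CPM in Eff- libraries (SD, n = 3 each), a log2 fold change of -1.12 (SE 0.27, 2.18-fold lower, edgeR adjusted p = 0.040).

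Both calls depended on single libraries, while their direction did not. The Tfeb call was lost without wound Eff+ 2 (edgeR adjusted p = 0.079), without wound Eff- 1 (0.055) and without wound Eff- 2 (0.064), with log2 fold changes from 1.26 to 1.57 over the 6 omissions. The Tfec call held only without wound Eff+ 3 (edgeR adjusted p = 0.047), and its log2 fold change ran from -1.36 to -0.88. Without both libraries numbered 2, no gene was called in the wound, Tfeb stood at 1.34 (edgeR adjusted p = 0.24) and Tfec at -1.06 (0.29). In a bulk library, a lower count can come from fewer cells of a type or from less RNA per cell, and these cannot be told apart.

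Tfe3 and Mitf overlapped between the wound groups. Tfe3 (ENSMUSG00000000134, chrX:7628799-7641441, plus strand), the close relative of Tfeb under the same folliculin control, had 78.1, 148 and 122 CPM in Eff+ libraries and 66.2, 77.0 and 103 CPM in Eff- libraries. Its log2 fold change was 0.50 (SE 0.27, edgeR adjusted p = 0.26). Eff+ 1 was near the Eff- libraries, and Eff+ 2 and Eff+ 3 were above all of them. Mitf (ENSMUSG00000035158, chr6:97784013-97998310, plus strand), the factor best known from melanocytes, osteoclasts and mast cells, had 18.7, 28.6 and 27.1 CPM in Eff+ libraries and 26.1, 24.6 and 37.9 CPM in Eff- libraries. The log2 fold change of Mitf was -0.25 (SE 0.24, edgeR adjusted p = 0.53).

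Because the factors form mixed dimers, their proportions were also read within each library, as shares of the summed CPM per kilobase of the 4 factors, which library scaling does not touch. Tfeb made up 16.5 to 17.0% in wound Eff+ libraries and 4.86 to 8.25% in wound Eff- libraries. The 3 wound Eff+ shares of Tfeb lay close together although the summed level ran from 21.3 CPM per kilobase in Eff+ 1 to 33.7 in Eff+ 2. Tfec made up 9.50 to 17.8% in wound Eff+ and 31.4 to 34.7% in wound Eff- libraries. Tfe3 made up 48.0 to 57.1% in wound Eff+ and 38.1 to 40.6% in wound Eff- libraries, so its shares did not overlap although its CPM did. Mitf made up 16.5 to 17.2% in wound Eff+ and 19.4 to 22.5% in wound Eff- libraries. These shares follow from the levels above and were not tested. In culture the Mitf share went with the replicate number, and that of Tfeb did not. Mitf made up 42.1% in Eff+ 1 and 40.1% in Eff- 1, against 22.1% in Eff+ 2 and 19.5% in Eff- 2. Tfeb made up 18.8 and 14.3% in culture Eff+ 1 and 2, and 18.9 and 19.0% in culture Eff- 1 and 2.

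**Figure D2:**
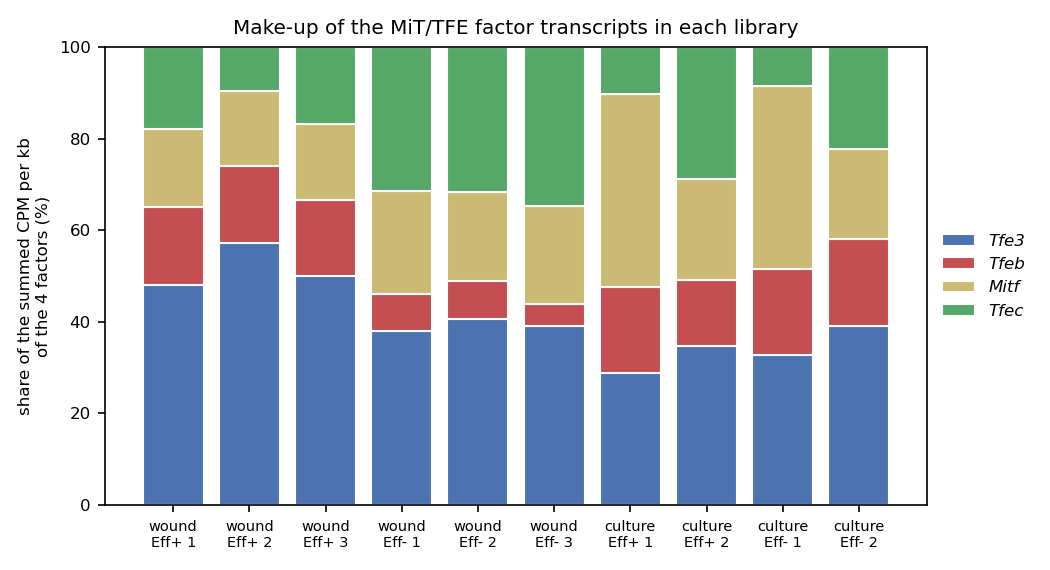
Share of the summed CPM per kilobase of Tfe3, Tfeb, Mitf and Tfec (vertical axis, percent) in each of the 10 libraries, 1 stacked bar per library. In the wound, the Tfeb segment takes 16.5 to 17.0% of Eff+ bars and 4.86 to 8.25% of Eff- bars, and the Tfec segment 9.50 to 17.8% of Eff+ bars and 31.4 to 34.7% of Eff- bars.

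None of the 3 folliculin complex genes passed the test in the wound. Flcn (ENSMUSG00000032633, chr11:59682234-59700842, minus strand), the GTPase-activating subunit, had 108, 206 and 156 CPM in Eff+ and 104, 158 and 171 CPM in Eff- libraries. The log2 fold change of Flcn was 0.12 (SE 0.28, edgeR adjusted p = 0.82). It was -0.28 with library totals as the only scaling, where the median of all genes was -0.42. Fnip1 (ENSMUSG00000035992, chr11:54329025-54409061, plus strand), a folliculin-binding partner, had 128, 193 and 184 CPM in Eff+ and 106, 117 and 178 CPM in Eff- libraries. Its log2 fold change was 0.33 (SE 0.25, edgeR adjusted p = 0.42). Fnip2 (ENSMUSG00000061175, chr3:79363281-79475103, minus strand), the alternative partner, had 42.6, 93.5 and 101 CPM in Eff+ and 38.7, 57.8 and 73.7 CPM in Eff- libraries. Its log2 fold change was 0.48 (SE 0.35, edgeR adjusted p = 0.41). For all 3 genes the library numbered 1 was the lowest of its group, in Eff+ and in Eff-.

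Neither target gene passed the test in the wound. Gpnmb (ENSMUSG00000029816, chr6:49013480-49047863, plus strand), a transmembrane glycoprotein gene of macrophages, osteoclasts and melanocytes and a known target of MITF and TFE3, had 165, 169 and 539 CPM in Eff+ libraries and 348, 320 and 705 CPM in Eff- libraries. Library 3 was the highest of each group, which put Eff+ 3 above Eff- 1 and Eff- 2. The log2 fold change of Gpnmb was -0.65 (SE 0.52, edgeR adjusted p = 0.44), and leaving out 1 library moved it between -1.45 (without Eff+ 3, edgeR adjusted p = 0.076) and -0.21 (without Eff- 3, edgeR adjusted p = 0.85). It was -0.37 without Eff+ 1 and -0.38 without Eff+ 2. At each replicate number Gpnmb was lower in Eff+ than in Eff-, with log2 ratios of -1.07, -0.92 and -0.39. In a fit that treated equal replicate numbers as pairs, Gpnmb stood at -0.79 and was called, but no label pairs these libraries. Mcoln1 (ENSMUSG00000004567, chr8:3550457-3565232, plus strand) encodes TRPML1, the lysosomal channel whose calcium release activates the phosphatase calcineurin toward TFEB. It had 40.7, 54.0 and 61.0 CPM in Eff+ libraries and 68.2, 54.0 and 64.4 CPM in Eff- libraries, a log2 fold change of -0.26 (SE 0.19, edgeR adjusted p = 0.41).

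**Figure D3:**
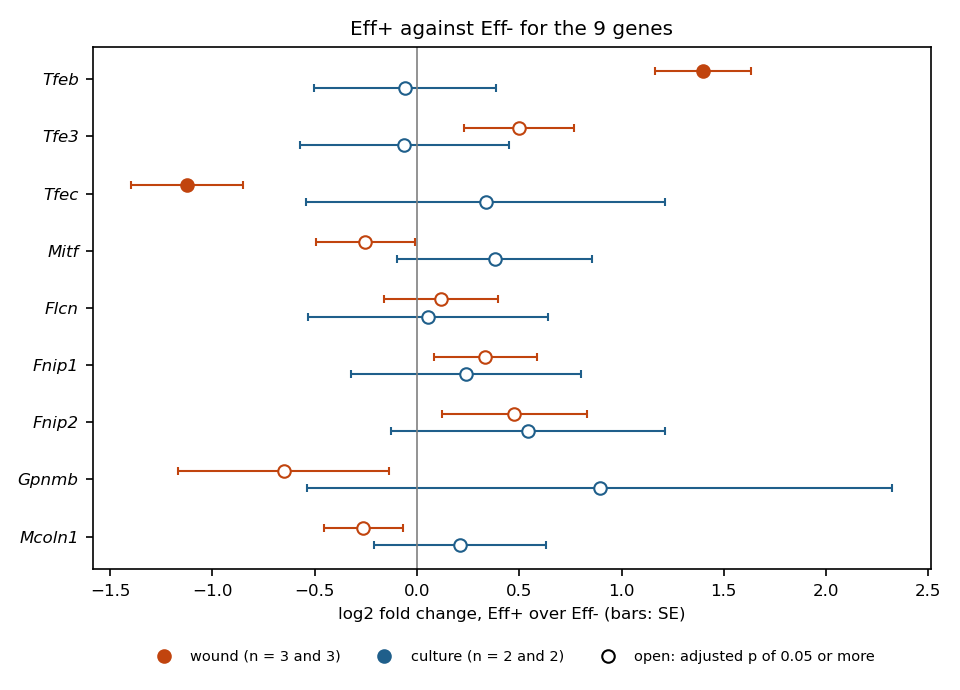
Log2 fold change of Eff+ over Eff- for each of the 9 genes (horizontal axis) with its SE as a bar, in the wound (n = 3 per group) and in culture (n = 2 per group); filled circles mark an adjusted p under 0.05. Tfeb at 1.40 and Tfec at -1.12 in the wound are the filled circles, and all 9 culture values lie within 1 SE of 0.

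Around these genes, lists of pathway genes, also chosen with earlier results of these data known, were read for how many members passed the test. Among 25 tested genes of mTORC1, the Rag GTPases and Ragulator, 2 rose in wound Eff+ cells and 0 fell, a share near the 7.39% of all genes called higher. Of the 25, 20 had negative values and the median was -0.30, beside -0.03 and 48.7% positive over all genes. With library totals as the only scaling, 2 of the list were higher and 8 lower. Over all 14908 genes that scaling called 714 higher and 2654 lower, and the median was -0.42. Rragd, whose product is the RagD GTPase that folliculin acts on and itself a TFEB target, had 4.91, 5.55 and 4.76 CPM in wound Eff+ libraries and 1.87, 1.26 and 1.01 CPM in wound Eff- libraries. The groups did not overlap, and the log2 fold change was 1.88 (SE 0.38, edgeR adjusted p = 0.023). Sesn2, the leucine sensor Sestrin 2 that restrains mTORC1, had 65.2, 93.3 and 84.0 CPM in Eff+ and 24.9, 17.1 and 29.0 CPM in Eff- libraries, with a log2 fold change of 1.77 (SE 0.24, edgeR adjusted p = 0.0097). Of 9 tested AMPK subunit and upstream kinase genes and of 17 tested kinases, phosphatase and 14-3-3 genes acting on TFEB and MITF, 0 passed in either direction by edgeR. DESeq2 called 2 AMPK genes higher, and of the kinase list 2 higher and 1 lower, beside 1919 higher and 1231 lower of 14908 genes. Library totals as the only scaling gave 2 and 5 lower in these lists, beside the 2654 of all genes. The smallest p among them belonged to the AMPK activator Stk11 (log2 fold change 1.37, edgeR adjusted p = 0.061) and the 14-3-3 gene Ywhab (-0.51, edgeR adjusted p = 0.060).

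Of 12 tested lysosomal ion channel genes, 3 fell in wound Eff+ cells and 0 rose, beside 3.79% of all genes called lower. All 12 values were negative in the wound, with a median of -0.36, which was -0.63 without wound Eff+ 3. Leaving out any 1 wound library left at most 1 of these calls. In culture 9 of the 12 values were positive, with a median of 0.29. Mcoln2, which encodes TRPML2, a relative of the Mcoln1 channel, had 9.20, 7.80 and 14.1 CPM in Eff+ libraries and 20.1, 22.5 and 35.9 CPM in Eff- libraries. Its log2 fold change was -1.34 (SE 0.31, edgeR adjusted p = 0.036), and the groups did not overlap. The calls on P2rx4, an ATP-gated channel found on lysosomes (-0.71, SE 0.15, edgeR adjusted p = 0.029), and on the endolysosomal cation channel gene Tpcn1 (-0.81, SE 0.21, edgeR adjusted p = 0.048) had the same direction.

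Medians of known TFEB targets differed in sign from list to list in the wound. Beside the counts below, 7.39% of all genes tested were called higher and 3.79% lower, so single calls per list were not unusual. Of 30 lysosomal hydrolase and membrane genes, 1 rose and 5 fell, 22 were negative, and the median was -0.49. With library totals as the only scaling, 1 was higher and 15 lower. Under that scaling 2654 of all 14908 genes were called lower, and the median of all genes was -0.42. On the TMM scale, 0 of the 30 were called without Eff+ 2, without Eff- 1 or without Eff- 2. Gla, the lysosomal alpha-galactosidase whose promoter is printed above, had 510, 516 and 473 CPM in Eff+ libraries and 257, 252 and 278 CPM in Eff- libraries, a log2 fold change of 0.93 (SE 0.15, edgeR adjusted p = 0.013). Its groups were far apart, while the glycosidase genes Gusb (-0.90, SE 0.18, edgeR adjusted p = 0.023) and Manba (-0.80, SE 0.19, edgeR adjusted p = 0.035) fell. Of 15 proton pump genes, 13 were positive with a median of 0.23. With library totals as the only scaling the median was -0.17, beside -0.42 over all genes. On the TMM scale the 1 gene that passed was the subunit gene Atp6v1h, which fell (-0.55, SE 0.14, edgeR adjusted p = 0.044). Of 18 tested autophagy genes, 2 rose and 0 fell, 16 were positive, and the median was 0.50. With library totals as the only scaling, 0 were higher and 1 lower, 13 were positive and the median was 0.11, beside -0.42 over all genes. Map1lc3b, which encodes the autophagosome protein LC3B, had 957, 837 and 606 CPM in Eff+ and 462, 377 and 396 CPM in Eff- libraries (log2 fold change 0.96, SE 0.21, edgeR adjusted p = 0.031). Gabarap, of the same protein family, stood at 0.66 (SE 0.16, edgeR adjusted p = 0.040).

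Among 16 tested MITF and TFE3 targets of osteoclasts and macrophages, 2 rose and 1 fell, beside 7.39% of all genes called higher and 3.79% lower. Their median was -0.25, and ran from -0.45 without wound Eff+ 3 to -0.12 without wound Eff+ 1. Mmp9, a secreted gelatinase also stored in neutrophil granules, had 683, 886 and 656 CPM in Eff+ and 198, 152 and 269 CPM in Eff- libraries (log2 fold change 1.85, SE 0.25, edgeR adjusted p = 0.0098). Cd9, a tetraspanin, averaged 3045 ± 635 CPM in Eff+ and 1024 ± 455 CPM in Eff- libraries (SD, n = 3 each; log2 fold change 1.57, SE 0.33, edgeR adjusted p = 0.026). Trem2, a lipid receptor of macrophages, had 127, 98.1 and 150 CPM in Eff+ and 255, 266 and 288 CPM in Eff- libraries (log2 fold change -1.11, SE 0.19, edgeR adjusted p = 0.016). For all 14 pathway genes named here as passing, leaving out 1 library kept the sign, and the highest edgeR adjusted p over those omissions ran from 0.062 for Sesn2 and Mmp9 to 0.15 for Gabarap.

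**Figure D4:**
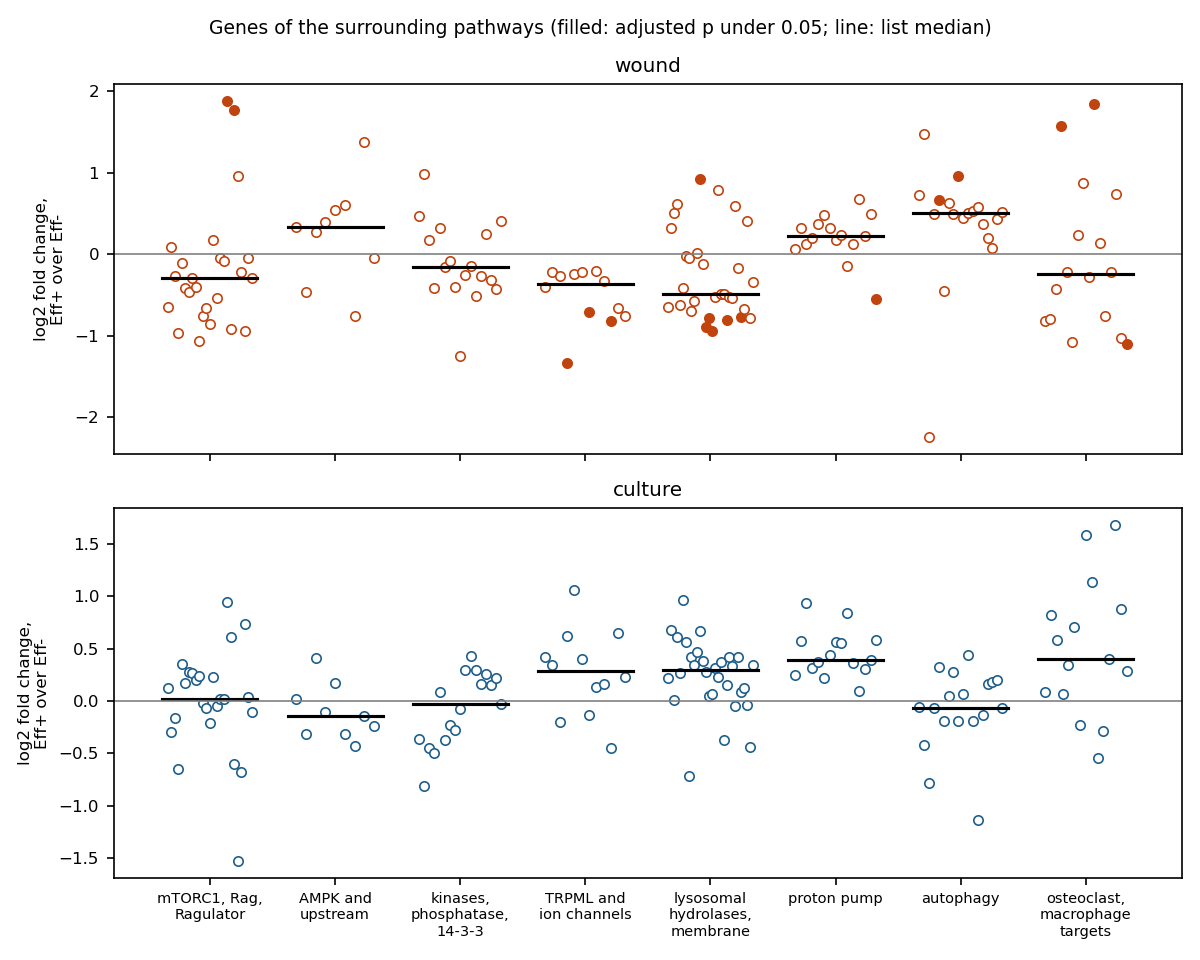
Log2 fold change of Eff+ over Eff- (vertical axis) for each tested gene of 8 pathway lists (horizontal axis) in the wound (top) and in culture (bottom); filled circles have an adjusted p under 0.05 and lines are list medians. In the wound, hydrolase genes have a median of -0.49 and autophagy genes 0.50, whereas in culture no gene passes and the proton pump median is 0.39.

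The genes whose wound pattern was most like that of Tfeb, Tfec and Gpnmb were found by Pearson's r of log2 CPM over the 6 wound libraries, among 8144 genes with a mean of at least 5 CPM. These r values contain the difference between Eff+ and Eff-, and they are descriptions. Mcoln2 was the nearest gene to Tfec (r = 1.00), followed by Odf2l (r = 0.991) and the endoplasmic reticulum membrane complex gene Emc1 (r = 0.990), and 341 genes reached 0.9. For Tfeb the nearest were Ccdc88b (r = 0.998) and Hip1r, an endocytic clathrin and actin adaptor gene (r = 0.997), with 499 genes at 0.9 or above. For Gpnmb they were Rcbtb2 (r = 0.990), Uhrf2 (r = 0.985) and Amz1 (r = 0.981), with 110 genes at 0.9 or above.

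Markers of other cells moved with the wound groups, and their part in the results on these genes was not tested. Over all genes tested, 7.39% were called higher and 3.79% lower. Of 14 tested neutrophil markers, 11 rose in Eff+ cells and 0 fell, with a median log2 fold change of 2.62. Of 14 macrophage markers, 0 rose and 6 fell, with a median of -0.98. Melanocyte markers, which matter for Mitf and Gpnmb, took 0.00482 to 0.0108% of counts in wound Eff+ and 0.0175 to 0.0262% in wound Eff- libraries, nearly all of it Ednrb. Sox10 was at 0 in all 6 wound libraries, and the pigment genes Tyr, Tyrp1 and Dct had 20, 40 and 109 counts in wound Eff+ 1 and 0 in the other 5. Eff+ 1 had the lowest Mitf and Gpnmb values of the 6. Mast cell markers took 0.501 to 0.649% in wound Eff+ and 0.0623 to 0.179% in wound Eff- libraries, mostly as Hdc, which granulocytes also express. Counts of the mast cell protease gene Cpa3 were 32, 1281 and 648 in Eff+ 1, 2 and 3, and 1861, 0 and 3 in Eff- 1, 2 and 3. Osteoclast markers took 0.0106 to 0.0208% in wound Eff+ and 0.0221 to 0.0369% in wound Eff- libraries, with Calcr at 0 in 5 of the 6. Of 6 tested osteoclast markers, however, 3 were positive and 3 negative, and 0 were called in either direction. Dendritic cell markers took 0.108 to 0.252% in wound Eff+ and 0.213 to 0.743% in wound Eff- libraries, nearly all of it H2-Ab1. Of 12 tested dendritic cell markers, 4 were positive and 8 negative, and 1 was called higher and 0 lower. Fibroblast markers took 0.0721 to 0.237% in wound Eff+ and 0.0261 to 0.144% in wound Eff- libraries. All 14 fibroblast markers were tested and positive, with a median of 1.27, and 2 were called higher and 0 lower. Keratinocyte markers took at most 0.00584% in any wound library. The 4 of them that were tested were all positive, with a median of 6.10, and 2 were called higher.

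In culture, none of the 9 genes passed the test. Over all genes, 0 of 14867 were called by edgeR (0%), with 115 at an unadjusted p under 0.05 and 2 called by DESeq2, and with 2 libraries per group this does not show that genes did not differ. Groups overlapped for all 9 genes, beside 20.7% of tested genes whose groups did not. Tfeb had 45.6 and 34.8 CPM in culture Eff+ libraries, against 31.2 and 52.5 CPM in culture Eff- libraries, a log2 fold change of -0.06 (SE 0.44). Its highest and lowest values were both in Eff- libraries. Tfec had 24.7 and 69.2 CPM in culture Eff+ and 13.7 and 60.7 CPM in culture Eff- libraries (log2 fold change 0.34, SE 0.88). The libraries numbered 2 were far above those numbered 1 in both groups. Tfe3 had 115 and 138 CPM in Eff+ and 88.2 and 176 CPM in Eff- libraries, and Mitf had 112 and 58.9 CPM in Eff+ and 72.3 and 58.9 CPM in Eff- libraries.

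The folliculin complex genes split by library number in culture as well. Fnip2 had 254 and 108 CPM in culture Eff+ and 171 and 76.5 CPM in culture Eff- libraries (log2 fold change 0.54, SE 0.67). Fnip1 had 145 and 106 CPM in culture Eff+ and 149 and 64.1 CPM in culture Eff- libraries, and Flcn had 121 and 133 CPM in Eff+ and 67.4 and 177 CPM in Eff- libraries. Fnip1 and Fnip2 were higher in the libraries numbered 1, and Flcn in those numbered 2. Mcoln1 had 136 and 106 CPM in culture Eff+ and 89.5 and 120 CPM in culture Eff- libraries, with a log2 fold change of 0.21 (SE 0.42).

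Gpnmb spanned the widest range of the 9 genes in culture. It had 12005 and 23918 CPM in Eff+ libraries and 1444 and 17909 CPM in Eff- libraries, so that 1 library, Eff- 1, stood far below the remaining 3. Its log2 fold change was 0.89 (SE 1.43, edgeR adjusted p = 1.0). Leaving out culture Eff- 1 brought it to 0.04, and leaving out culture Eff- 2 to 3.93 (edgeR adjusted p = 0.16), where the lone Eff- library is assumed to vary like the others. The macrophage list took 1.94 and 5.67% of counts in culture Eff+ 1 and 2, and 0.657 and 6.72% in culture Eff- 1 and 2. It was thus low in the same library, but most of its counts were Lyz2. Lyz2 held 353487 and 1316273 counts in Eff+ 1 and 2, and 68753 and 1363745 in Eff- 1 and 2. The part of these markers in the Gpnmb values was not tested.

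Among the pathway lists in culture, 0 genes passed. All 15 proton pump genes and 25 of 30 hydrolase and membrane genes had positive values, with medians of 0.39 and 0.30, beside -0.05 over all genes and 46.2% positive among all genes. When 1 culture library at a time was left out, the proton pump median ran from -0.03 to 1.78 and the hydrolase median from -0.29 to 1.90, so single libraries set both. Mcoln2 had 101 and 122 CPM in culture Eff+ and 25.9 and 119 CPM in culture Eff- libraries, and Gla had 162 and 184 CPM in Eff+ and 40.9 and 176 CPM in Eff- libraries. In both, as in Gpnmb, Eff- 1 stood below the remaining 3.

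Whether the difference between Eff+ and Eff- itself differed between the models was tested in a fit of all 10 libraries, as wound minus culture. None of the 9 genes and 0 of 20270 genes were called by edgeR (0%; 2222 genes at an unadjusted p under 0.05, 797 called by DESeq2). Tfeb had the smallest p of the 9, with a difference of 1.47 (SE 0.47, edgeR adjusted p = 0.30). DESeq2 called Tfeb, at 1.58 (SE 0.49, DESeq2 adjusted p = 0.028). The Tfeb difference was positive whichever 1 library was left out, from 0.99 to 1.77. Tfec differed by -1.44 (SE 0.83, edgeR adjusted p = 0.55) and Gpnmb by -1.53 (SE 1.26, edgeR adjusted p = 0.68), and for the remaining 6 genes the edgeR adjusted p was 0.67 or more. Without culture Eff- 2, edgeR called 2009 genes, Tfec at -2.93 (adjusted p = 0.0087) and Gpnmb at -4.34 (adjusted p = 0.0056) among them. That call rests on the lone culture Eff- 1 library, the one lowest in both genes. Mcoln2 differed by -1.94 (SE 0.76, edgeR adjusted p = 0.40), Sesn2 by 2.39 (SE 0.44, edgeR adjusted p = 0.12) and Rragd by 0.96 (SE 0.81, edgeR adjusted p = 0.69).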

How the data were processed

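RNA of the 10 libraries was polyadenylated. The wound values are raw counts of reads per gene, per the header of their file. The culture values were taken as counts as well. The authors counted wound reads with featureCounts 1.6.0 at default settings on Ensembl release 106 (GRCm39), per the file headers; that command sets no strand, so antisense reads cannot be told apart. Trimmomatic 0.39 and GRCm39 appear in the submitters' processing notes. Alignment software and the counting of culture reads were not given in the sources used here; 4 further columns match no sample and were not used.

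Symbols came from GENCODE vM21 (52081 of 55414 identifiers, 99.91% of counts). Samples were grouped by title. Wound and culture libraries were fitted separately in edgeR 4.0.16 under R 4.3.3 (TMM, filterByExpr, quasi-likelihood test of Eff+ against Eff-, no covariate), and a fit of all 10 libraries tested the difference between models. Benjamini-Hochberg adjusted p under 0.05 was called. The SE is the log2 fold change over the square root of its F statistic. The code was tested on simulated counts. For each pathway list, up to 3 called wound genes of largest change per direction were named, or the 2 of smallest p. The nearest genes to Tfeb, Tfec and Gpnmb were ranked by r of log2 CPM (prior count 2). Of the genes so named, 2 are not reported here. The members and lists were chosen with earlier results of these data known. Alternatives were other scalings, DESeq2 1.42.0, limma-voom (limma 3.58.1), other filters, a replicate block and left-out libraries; 2 scalings of the levels and leaving out both culture libraries numbered 1 were chosen after seeing the data.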

Additional observations from a re-analysis of the deposited data

How the results depend on the processing

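Tfeb and Tfec kept their direction in the wound in all settings tried. Both stayed called under relative log expression and upper quartile scaling, library totals only, DESeq2, limma-voom, no filter, a filter at 1 CPM and the replicate block. In 1 fit of all 10 libraries, neither was called (adjusted p = 0.075 for Tfeb and 0.37 for Tfec). Wound calls over all genes, 1666 as reported, were 3368 with library totals only (714 higher and 2654 lower, against 1101 and 565; the median of all genes moved to -0.42), 3150 with DESeq2, 2985 with the replicate block, 82 in 1 fit of all 10 libraries, and 0 without both libraries numbered 2. In those last 2 settings 0 of the 9 genes were called. Leaving out 1 wound library gave 0 to 1347 calls and 0 to 2 of the 9 genes; it gave 0 without Eff+ 2 (3260 at an unadjusted p under 0.05), 189 without Eff- 2, 451 without Eff- 1, 820 without Eff+ 3 and 901 without Eff- 3. Culture calls were 2 with DESeq2, 2 with no filter, 48 with the replicate block and 0 to 27 leaving out 1 library (25 without Eff+ 1, 27 without Eff- 2). Calls on the difference between models were 797 with DESeq2 (1 of the 9 genes), 517 with no filter, 441 with the replicate block, 7 without both culture libraries numbered 1, and 0 to 2009 leaving out 1 library (7 without culture Eff+ 1, 4 without culture Eff- 1, 2009 without culture Eff- 2), with 0 to 2 of the 9 genes.

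No label ties the replicate numbers to a shared animal or batch. Deviations from the group mean correlated at 0.41, 0.017 and 0.23 for the wound pairs, and wound Eff+ 2 did not correlate best with its own number, so the numbers were not taken to pair the wound samples. In culture the correlation was 0.74 and each library matched its own number. With 2 libraries per group the deviations mirror each other, so both matches follow from 1 positive correlation. That single value cannot decide whether the culture numbers are pairs. With the replicate block in the wound, Gpnmb was also called (-0.79, adjusted p = 0.024), which made 3 of the 9 genes. In culture 0 of the 9 were called with the block.

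The following values, none of them called, changed sign. In the wound, Flcn was -0.28 and Fnip1 -0.052 with library totals only, and Flcn -0.0601 without both libraries numbered 2; Flcn ran from -0.13 to 0.32 leaving out 1 library. In culture, Tfe3 was 0.0091 with limma-voom, 0.10 with no filter and 0.016 with the block, and Tfeb 0.12 with no filter. Leaving out 1 culture library, Flcn ran from -0.44 to 1.21, Fnip2 from -0.17 to 1.28, Mitf from -0.12 to 0.90, Tfe3 from -0.44 to 0.81, Tfeb from -0.35 to 0.66 and Tfec from -0.56 to 2.07. For the difference between models, Fnip2 was 0.11 with relative log expression, 0.086 with upper quartile, 0.11 with DESeq2 and 0.0527 with the 1 CPM filter. Flcn was -0.35 with library totals only, -0.10 with limma-voom, -0.10 with the block and -0.089 without both wound libraries numbered 2. Fnip1 was -0.072 with library totals only, -0.072 without both wound libraries numbered 2 and -0.41 without both culture libraries numbered 1. Leaving out 1 library, Flcn ran from -0.83 to 0.59, Fnip1 from -0.66 to 0.54, Fnip2 from -0.78 to 0.67 and Tfe3 from -0.057 to 0.97. Of 72 levels recomputed under other scalings, 12 moved by more than their SD, all with library totals only. The cause of these changes was not tested. With 2 culture libraries per group, the SE of Tfec and Gpnmb reached 0.88 and 1.43 on the log2 scale, which limits what could be detected there.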
